A study of Mus musculus with 24 samples.

Results

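DNA replication and S-phase genes were followed here through mouse cardiac differentiation in culture and through the growth of the mouse heart. They are 40 genes that copy the genome or prepare the cell to do so, chosen by symbol from the gene-level array table, and 40 of 40 had a row among the 19920 genes measured. RNA came from 12 arrays in 6 groups of 2. The 3 culture groups were day 0 cultures of undifferentiated embryonic stem cells (called ES cells below), day 7 embryonic bodies (EB) and day 14 cardiac bodies (CB), all grown in a DMEM medium with 10% serum. The 3 heart groups were whole hearts from E17.5 embryos, pups at postnatal day 1 (P1) and adults. The labels give neither the ES cell line and mouse strain nor the adult age, and they name no transgene, treatment or sort. They do not say whether the 2 arrays of a group came from separate cultures or animals, so every p-value below measures only the spread between these arrays, and their number limits the precision. The adult samples carry a separate, later block of record numbers, and the labels do not say whether their arrays were run apart from the others. In comparisons with adult hearts, age and any such difference cannot be told apart. The series was made to study alternative exon use, and each RNA was deposited at gene level and at exon level.

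Replication begins in G1, when the origin recognition complex (Orc), Cdc6 and Cdt1 load the Mcm2 to Mcm7 helicase ring onto DNA, a step called licensing that geminin (Gmnn) blocks by binding Cdt1. At the start of S phase the ring is activated by Cdc45, the GINS complex and Mcm10, and polymerases then extend primers behind the fork with the sliding clamp Pcna. E2F factors, released from the retinoblastoma protein when cyclin E and its kinase are active, drive transcription of most of these genes, and in the heart the muscle cells are known to divide before birth and to leave the cell cycle soon after it.

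Sequences in front of the members are shown first, as background to the levels below. Whether a sequence match goes with a change in level was not tested. RefSeq promoters of GRCm38.p6, 300 bases each with 250 before and 50 after the start, were in hand for 33 members on 38 promoters. Both strands were searched for 4 words bound by E2F factors (TTGGCGC and TTCCCGC, and also TTGCCGC and TTCGCGC). A word was present in 25 of 38 member promoters (65.8%), against 3145 of 32851 promoters of all genes (9.6%). The pentamer CCAAT was present in 57.9% of member promoters and in 37.4% of all, and the reverse of CCAAT can share letters with TTGGCGC. Matches describe these letters only. The 3 promoters below belong to a helicase subunit with 5 matches, a helicase subunit with matches just after the start, and cyclin E1, whose window held none; capitals mark the words, and each is written 5′ to 3′ on the gene's minus strand.
Mcm6, chr1:128359656-128359955: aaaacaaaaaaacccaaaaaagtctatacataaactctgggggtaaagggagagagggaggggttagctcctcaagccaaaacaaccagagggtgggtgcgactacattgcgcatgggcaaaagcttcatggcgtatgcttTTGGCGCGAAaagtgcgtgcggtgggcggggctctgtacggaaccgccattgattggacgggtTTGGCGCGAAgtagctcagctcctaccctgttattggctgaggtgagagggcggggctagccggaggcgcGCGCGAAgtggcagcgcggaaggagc
Mcm3, chr1:20820263-20820562: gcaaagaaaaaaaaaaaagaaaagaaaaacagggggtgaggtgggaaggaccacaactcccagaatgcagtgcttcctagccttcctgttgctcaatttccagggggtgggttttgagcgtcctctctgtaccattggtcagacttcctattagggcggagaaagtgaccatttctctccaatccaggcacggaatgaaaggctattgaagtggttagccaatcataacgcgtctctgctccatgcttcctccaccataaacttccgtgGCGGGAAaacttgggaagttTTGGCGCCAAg
Ccne1, chr7:38107441-38107740: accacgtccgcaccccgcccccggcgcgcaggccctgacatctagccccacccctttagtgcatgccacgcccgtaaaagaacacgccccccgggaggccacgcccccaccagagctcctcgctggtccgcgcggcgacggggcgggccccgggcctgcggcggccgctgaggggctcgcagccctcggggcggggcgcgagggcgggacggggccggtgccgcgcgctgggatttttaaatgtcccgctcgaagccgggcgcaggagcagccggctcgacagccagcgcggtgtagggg
In the Mcm6 window 2 of the 3 capital runs hold 2 overlapping words each, beginning at -109 and at -46 counted from the start site. The Mcm3 words began at 19, 39 and 42 bases into the transcript.

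Across the 6 groups the members were high in culture and low in the grown heart. Values are log2 expression levels from the array, so a difference of 1 is a 2-fold change. The median over the 40 members was 9.04 and 8.95 on the ES arrays, 8.42 and 8.67 on the EB arrays and 8.33 and 8.51 on the CB arrays. It was 7.54 and 7.31 in E17.5 hearts, 6.44 and 6.54 in P1 hearts and 5.74 and 5.84 in adult hearts. Group means were highest in ES cells for 33 members and in EB for the other 7, and lowest in adult hearts for 34 and in P1 hearts for the other 6. Every culture array lay above every heart array for 33 members, and 34 members had means in the order E17.5, P1, adult. The span between a member's highest and lowest group mean ran from 1.37 to 5.30 log2 units with a median of 3.51. Of all 19920 genes, 4261 were highest in ES cells and 5069 lowest in adult hearts. The counts of separated arrays and of ordered heart means were not taken over all genes, so they have no share to stand beside.

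**Figure D1:**
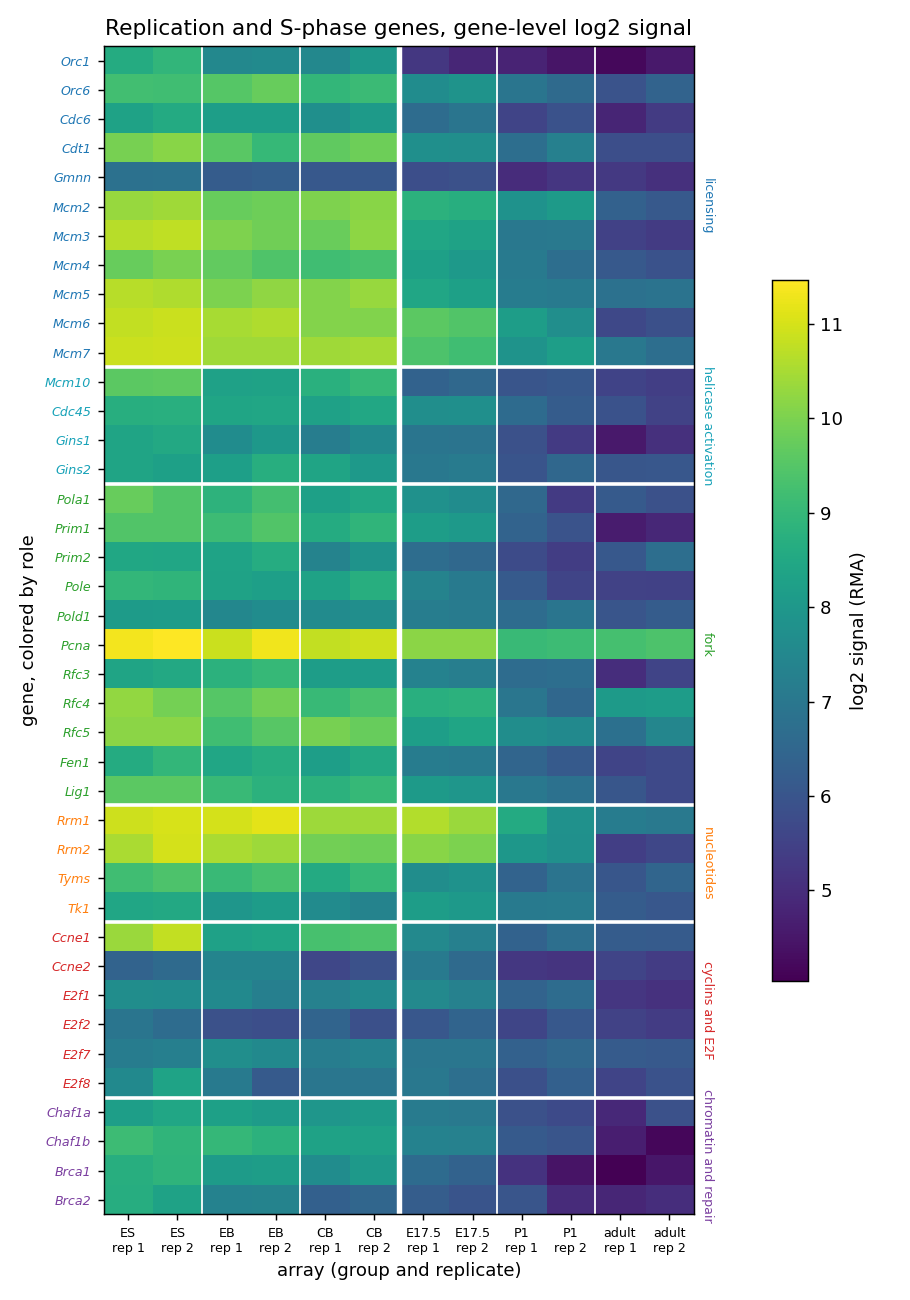
Log2 level of each of the 40 members (rows, grouped by role) on each of the 12 arrays (columns, grouped by condition), with colour giving the log2 level. Most rows run from high in the ES arrays to low in the adult arrays, and Rfc4 and Prim2 are lowest in P1.

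A member was called changed at an adjusted p under 0.05 in limma's moderated test, with 1 fit over all 12 arrays and Benjamini-Hochberg adjustment over 19920 genes; errors given with changes are standard errors. Counts of changes of at least 2-fold are taken among the called members. No share of all genes at that size stands beside them, and such a share cannot exceed the share called. Array medians lay between 5.61 and 5.76 over all gene-level rows and between 5.93 and 6.18 over the 19920 genes. The correlation across genes between the 2 arrays of a group lay between 0.9713 and 0.9928. The 2 P1 arrays were the least alike: Pola1 and Brca2 were over 1 log2 unit higher on replicate 1, and no member differed by that much within another group. Marker lists fitted the labels in part. The median of 8 cardiomyocyte markers was 5.21 to 5.32 in ES cells and EB, 11.13 to 11.60 in CB and 12.21 to 13.05 in hearts, while 8 pluripotency markers stood at 11.58 and 11.77 in ES cells, 8.30 on both EB arrays, 10.83 and 11.07 in CB and 5.10 to 5.45 in hearts. CB therefore held RNA of both marker lists. The 2 EB arrays differed in markers: medians were 9.89 and 5.57 for 6 erythroid, 8.34 and 6.56 for 7 fibroblast and 6.96 and 8.02 for 7 endothelial markers.

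Between E17.5 and P1 the members fell across all roles. Of 40 members, 29 fell and 0 rose, against 3.05% of all genes called lower and 2.08% called higher; 23 of the 29 fell at least 2-fold. The estimate was below 0 for 40 of 40, and their median change was -1.07 beside 0.01 for all genes. Calls came to 9 of 11 in licensing, 2 of 4 in helicase activation, 8 of 11 at the fork, 4 of 4 in nucleotide supply, 3 of 6 among cyclins and E2F, and 3 of 4 in chromatin and repair. The count was 13 without E17.5 replicate 1 and 17 without E17.5 replicate 2. With each gene taken as the median of its exon-level probe sets it was 20: the calls of Cdc6, Gmnn, Mcm5, Fen1, Prim2, Tk1, Ccne1, E2f1 and Chaf1a were lost, with estimates still below 0. In the same step the erythroid marker medians went from 6.76 and 8.15 to 5.02 and 5.33. Fibroblast medians went from 11.06 and 11.23 to 11.06 and 10.12, and endothelial medians from 9.17 and 9.06 to 9.43 and 9.22. Macrophage medians went from 6.21 and 6.52 to 6.46 and 6.82, and cardiomyocyte medians from 12.86 and 12.80 to 13.05 and 12.89. Their part in the members' values was not tested. Bulk RNA cannot tell fewer cells of a type from less RNA per cell, here or in the comparisons that follow.

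In nucleotide supply the ribonucleotide reductase subunits fell farther around birth than the median member. Rrm1 (row 10555695), the large subunit of ribonucleotide reductase, which makes the deoxynucleotides, measured 10.61 and 10.34 at E17.5 and 8.59 and 7.81 at P1. Rrm2 (10394978), the small subunit, measured 10.14 and 10.01 and then 7.96 and 7.77. The ages did not overlap for either subunit. Rrm1 fell by 2.28 ± 0.23 (4.84-fold, adjusted p = 0.000102 in limma) and Rrm2 by 2.21 ± 0.19 (4.63-fold, adjusted p = 3.87e-05). Tyms, thymidylate synthase, fell by 1.09 ± 0.23 and Tk1, thymidine kinase, by 1.00 ± 0.17. Tk1 has 2 rows, and the one with the higher mean was used. The other, 10393431, fell less, from 7.48 and 7.22 at E17.5 to 6.66 and 6.68 at P1.

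At the fork, Rfc4 (10438690), a subunit of the clamp loader, measured 8.71 and 8.82 at E17.5 and 6.95 and 6.51 at P1. It fell by 2.04 ± 0.21 (adjusted p = 0.000135 in limma). Prim1, the catalytic primase subunit, fell from 8.17 and 8.06 to 6.40 and 5.94, a change of -1.94 ± 0.20. Pola1, the catalytic subunit of the polymerase that works with primase, fell by 1.80 ± 0.32, with P1 arrays at 6.54 and 5.31. Pcna fell by 1.06 ± 0.18, and the polymerase Pole by 1.38 ± 0.21. The subunits Rfc3 and Rfc5 and the lagging-strand polymerase Pold1 did not pass, with estimates of -0.58 ± 0.19, -0.67 ± 0.22 and -0.37 ± 0.17.

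In licensing, 6 of 6 ring subunits fell, from Mcm2 by 0.80 ± 0.17 to Mcm6 by 1.58 ± 0.19, though with exon-level medians Mcm5 was -0.70 with an adjusted p of 0.126. Mcm6 (10357436) measured 9.60 and 9.45 at E17.5 and 8.19 and 7.70 at P1. Cdc6 and Orc6 fell by 1.05 ± 0.22 and 1.00 ± 0.20, and geminin fell by 0.75 ± 0.16. Orc1 and Cdt1 did not pass, at -0.41 ± 0.23 and -0.72 ± 0.22. Among the activators Cdc45 and Gins1 both fell by 1.31, whereas Mcm10 and Gins2 did not pass. Of the regulators, Ccne2, cyclin E2, fell by 1.64 ± 0.19 from 7.07 and 6.62 to 5.25 and 5.15, E2f1 by 0.90 ± 0.18 and Ccne1 by 0.84 ± 0.20. The E2F genes E2f2, E2f7 and E2f8 did not pass. Brca1, which acts in repair of broken DNA by recombination, fell by 1.73 ± 0.25 and both chromatin assembly subunits, Chaf1a and Chaf1b, by 1.29 ± 0.26 and 1.25 ± 0.19.

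**Figure D2:**
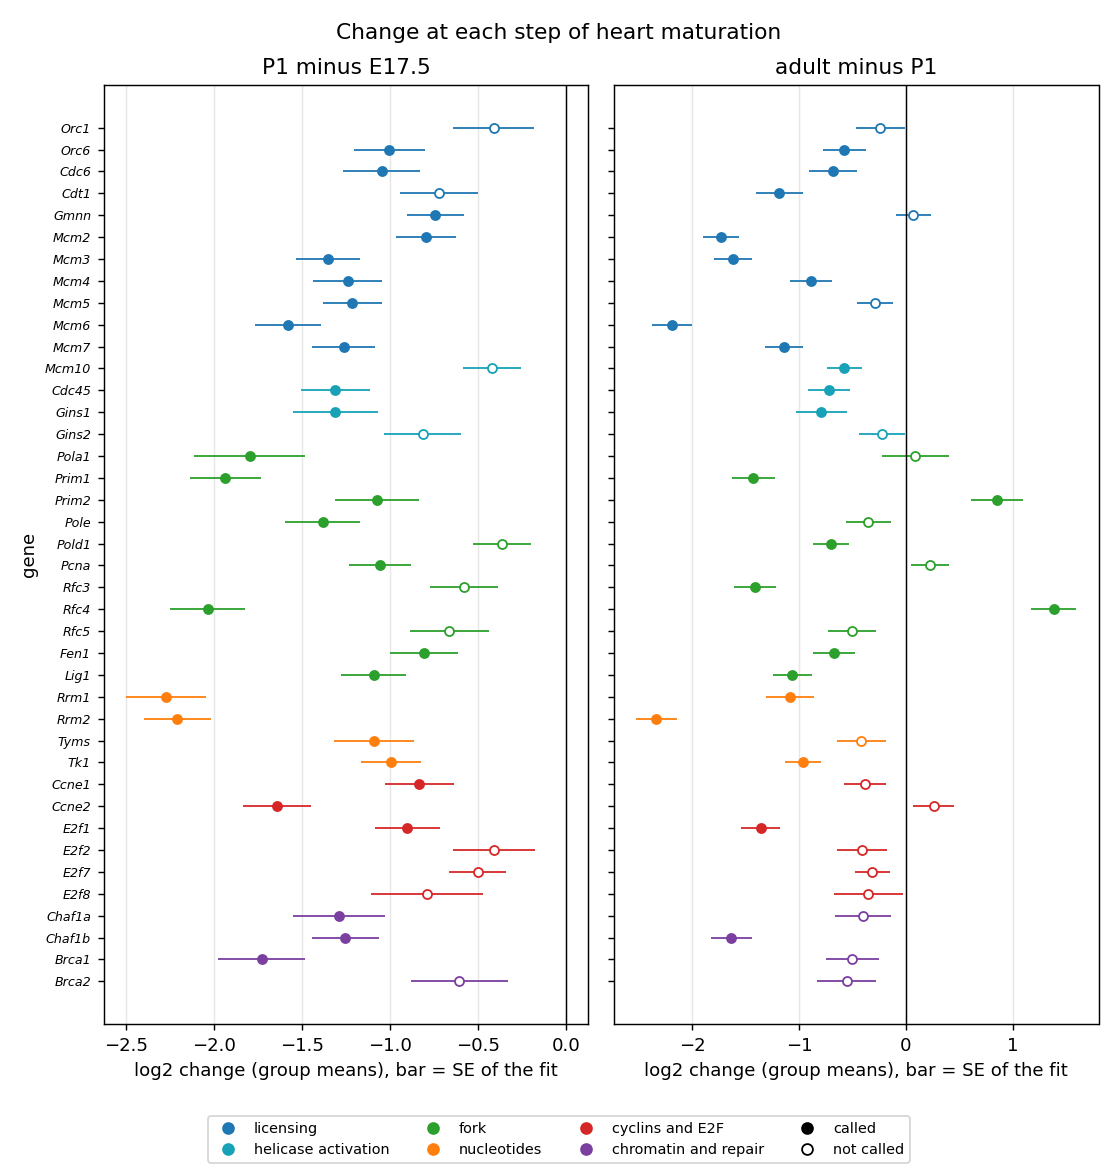
Log2 change of each of the 40 members between E17.5 and P1 and between P1 and adult hearts, as points with standard errors from limma (2 arrays per group; filled points are called, and colour marks the role). All 40 estimates of the first step are below 0, and in the second step Rfc4 and Prim2 are called higher.

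From P1 to the adult the pattern was mixed. Of 40 members 21 fell and 2 rose, against 14.7% of all genes called lower and 15.6% called higher, and the members' median was -0.58 beside 0.04 for all genes. By role, 8 of 11 licensing genes fell, 3 of 4 activators, 5 of 11 fork genes, 3 of 4 nucleotide genes, 1 of 6 cyclins and E2F (E2f1) and 1 of 4 in chromatin and repair (Chaf1b). Of the 21, 12 fell at least 2-fold. The call of Orc6, which fell by 0.58 ± 0.20, was lost in 8 of 12 fits that each left out 1 array.

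The largest falls of this step were in Rrm2 and Mcm6. Rrm2 dropped from 7.96 and 7.77 at P1 to 5.42 and 5.64 in adults, a change of -2.33 ± 0.19 (adjusted p = 4.67e-06 in limma). Mcm6 dropped from 8.19 and 7.70 to 5.65 and 5.87, a change of -2.19 ± 0.19 (adjusted p = 6.1e-06 in limma). Neither gene's adult arrays overlapped its P1 arrays. Mcm2 fell by 1.73 ± 0.17 and Mcm3 by 1.62 ± 0.18, while Mcm5 did not pass at -0.29 ± 0.17 but was called with exon-level medians (-1.08, adjusted p = 0.00368 in limma). Chaf1b fell by 1.63 ± 0.19, Prim1 by 1.43 ± 0.20, Rfc3 by 1.41 ± 0.19 and E2f1 by 1.36 ± 0.18.

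Rfc4 and Prim2 were the members called higher from P1 to adult. Rfc4 rose from 6.95 and 6.51 at P1 to 8.08 and 8.14 in adults, by 1.38 ± 0.21 (2.61-fold, adjusted p = 0.000381 in limma), and this call held in 12 of 12 fits that left out 1 array. Prim2 (10353733), the larger primase subunit, measured 5.73 and 5.39 at P1 and 6.09 and 6.73 in adults, a rise of 0.85 ± 0.24 (adjusted p = 0.0173 in limma). The adult and P1 arrays did not overlap for either gene. The Prim2 call was lost in 2 of those 12 fits, with an adjusted p of up to 0.167, and with the gene taken as the median of its exon-level probe sets (0.68, adjusted p = 0.141 in limma). That same setting gave Ccne2, at 0.26 ± 0.19 and not called here, a rise of 1.33 (adjusted p = 0.00842). Pcna measured 9.08 and 9.14 at P1 and 9.28 and 9.39 in adults, 0.22 ± 0.18 higher, and was not called. Its value comes from 1 of 2 rows with near-equal values, so signal of a near-identical copy cannot be told apart from Pcna.

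Marker lists moved in the same step. All 6 macrophage markers measured rose between P1 and adult, with medians of 6.46 and 6.82 at P1 and 8.22 and 8.33 in adults, while of 7 fibroblast markers 4 fell and 1, Dcn, rose by 1.91 ± 0.49; the fibroblast medians were 11.06 and 10.12 and then 8.21 and 8.32. Endothelial medians lay between 9.06 and 9.52 on all 6 heart arrays, with Kdr called lower (-1.21 ± 0.26) and Emcn called higher (1.81 ± 0.62) from P1 to adult. Of 8 cardiomyocyte markers 3 fell in that step (Myh7, Myl2 and Nppa). Erythroid medians dropped in the earlier step, from 6.76 and 8.15 at E17.5 to 5.02 and 5.33 at P1, and were 5.38 and 5.63 in adults. The part of these cell types in the members' values was not tested.

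Over the whole span from E17.5 to adult, 39 of 40 members fell and 0 rose, against 18% of all genes called lower and 18.1% called higher. The fall was at least 2-fold for 32 members, and their median was -1.70 beside 0.05 for all genes. Rrm2 fell by 4.54 ± 0.19 (23.3-fold, adjusted p = 2.3e-08 in limma), Mcm6 by 3.77 ± 0.19 (13.6-fold, adjusted p = 5.19e-08 in limma), and Prim1 by 3.37 ± 0.20 (10.3-fold). Rrm1 fell by 3.36 ± 0.23 and Mcm3 fell by 2.97 ± 0.18. E2f1 fell by 2.26 ± 0.18, the farthest among 4 E2F genes. Prim2 was the only member not called, at -0.22 ± 0.24 with an adjusted p of 0.514. The smallest called falls were in Orc1, Rfc4 and Gmnn, at 0.65 ± 0.23, 0.65 ± 0.21 and 0.68 ± 0.16, and the calls of Orc1 and Rfc4 were each lost in 4 of 12 fits that left out 1 array. Orc1 and Gmnn were already low at E17.5, at percentiles 32.21 and 45.66 of all genes, while Rfc4 stood at 89.1. With exon-level medians 34 members fell: the calls of Orc1, Gmnn, Ccne2, E2f7 and E2f8 were lost, and Ccne2, which fell by 1.38 ± 0.19 here, was at -0.05 with an adjusted p of 0.922.

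**Figure D3:**
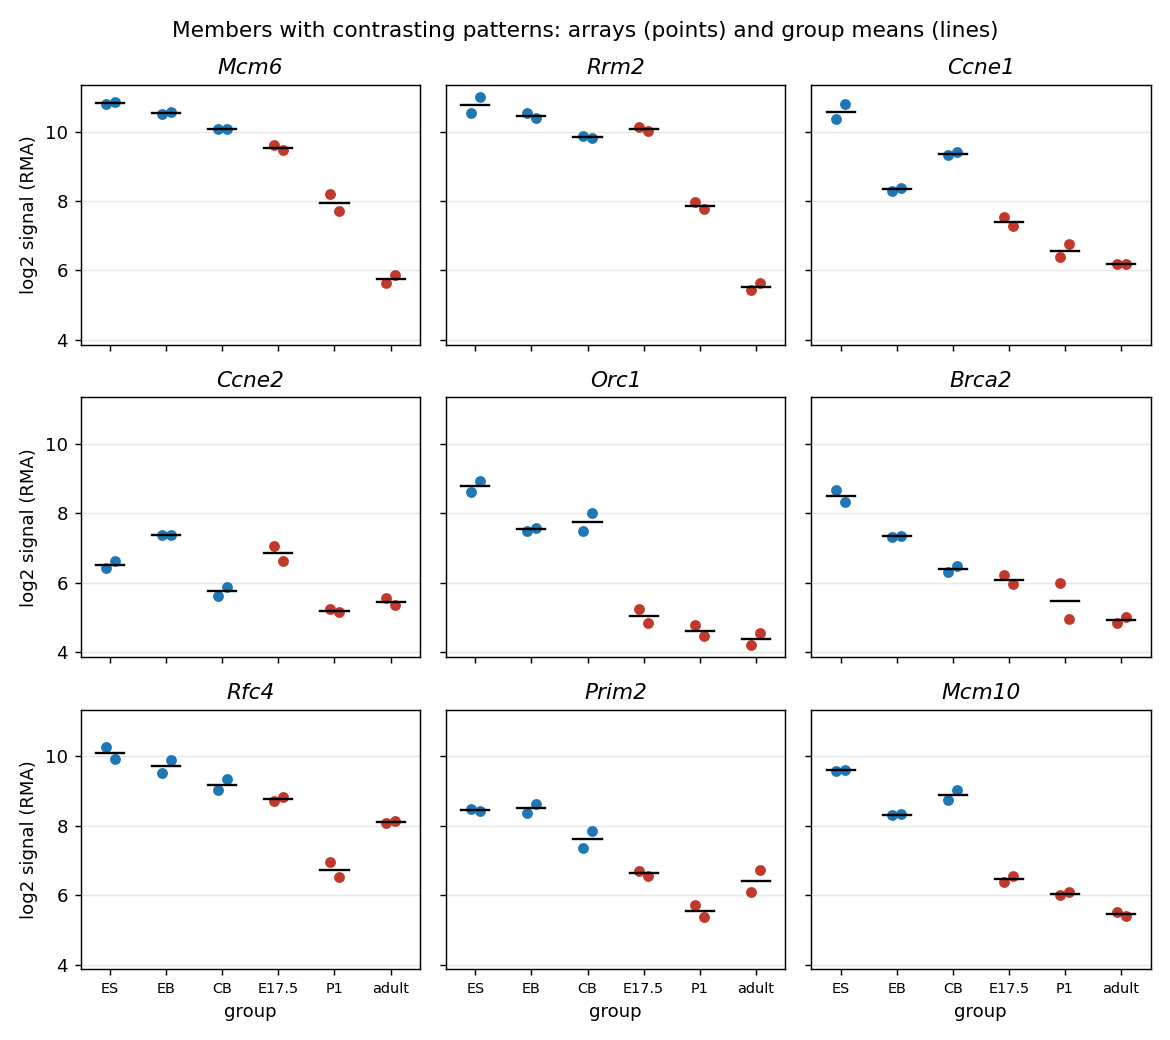
Log2 level of 9 members on each of the 12 arrays, with points for arrays and bars for group means. Rrm2 and Mcm6 step down at each heart age, and Rfc4 and Prim2 are higher in adult than in P1 hearts. Ccne1 and Ccne2 move in opposite directions from each culture stage to the next.

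In culture the changes were smaller and fewer. From ES cells to EB 15 members fell and 1 rose, against 8.61% of all genes called lower and 12% called higher, with a median of -0.42 beside -0.03 for all genes; 5 fell at least 2-fold. Falls were called for Orc1, Cdt1, Gmnn, Mcm2, Mcm3 and Mcm5 in licensing, Mcm10 among activators, Pole, Pold1, Rfc5 and Lig1 at the fork, Ccne1, E2f2 and E2f8 among regulators, and Brca2. Nucleotide genes had 0 of 4 called. Of the 16 calls, 5 were left when ES replicate 1 was dropped and 6 when ES replicate 2 was; dropping EB replicate 1 left 10, dropping EB replicate 2 left 6, and exon-level medians left 6. In the same step 7 of 8 pluripotency markers fell, and 4 of 6 erythroid, 5 of 7 fibroblast and 6 of 7 endothelial markers rose while the endothelial marker Pecam1 fell. Of 7 epithelial and endoderm markers 3 rose (Krt8, Krt18 and Sox17), with medians of 6.78 and 6.26 in ES cells and 9.18 and 8.91 in EB. Of 8 cardiomyocyte markers 3 rose and 1 fell, and 1 of 6 macrophage markers fell. The part of these markers' cells in the members' values was not tested.

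The 2 cyclin E genes, whose proteins activate Cdk2 at the start of S phase, moved in opposite directions at each culture step. From ES cells to CB both were called lower, Ccne2 not with exon-level medians (-0.39, adjusted p = 0.605 in limma). Ccne1 (10562563) measured 10.36 and 10.79 in ES cells, 8.30 and 8.37 in EB and 9.32 and 9.40 in CB. It fell by 2.24 ± 0.20 into EB (4.72-fold, adjusted p = 7.48e-06 in limma) and rose by 1.02 ± 0.20 into CB (adjusted p = 0.00464). Ccne2 (10503264) measured 6.42 and 6.62 in ES cells, 7.39 on both EB arrays and 5.63 and 5.89 in CB, a rise of 0.87 ± 0.19 (adjusted p = 0.0061) and then a fall of 1.63 ± 0.19 (adjusted p = 0.000141). The groups did not overlap for either gene at either step. All 12 exon-level probe sets of Ccne1 were lower in EB than in ES cells, and all 12 were higher in CB than in EB. With exon-level medians the Ccne1 rise was 1.03 with an adjusted p of 0.105, and the Ccne2 rise 0.76 with an adjusted p of 0.136; the Ccne2 rise was also lost without 1 array in 1 of 12 fits. The fall and the rise of Ccne1 and the fall of Ccne2 held in 12 of 12 such fits.

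Other large falls into EB were in Mcm10 and Orc1. Mcm10 (10479811), which joins helicase to polymerase, measured 9.59 and 9.62 in ES cells and 8.31 and 8.33 in EB, lower by 1.29 ± 0.16 on the log2 scale. Orc1 (10506822), the largest origin recognition subunit, measured 8.62 and 8.93 and then 7.50 and 7.59, a change of -1.23 ± 0.23. E2f8, a repressor of the E2F family, fell by 1.33 ± 0.32, and its EB arrays stood at 7.12 and 6.14.

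From EB to CB, 2 members rose and 4 fell, against 5.45% of all genes called higher and 6.43% called lower. Besides Ccne1, Mcm10 rose, by 0.57 ± 0.16 to 8.75 and 9.02. Besides Ccne2, falls were called for Prim2 by 0.89 ± 0.24, Rfc3 by 0.75 ± 0.19 and Brca2 by 0.94 ± 0.28. The shares called are near those of all genes. The calls of Mcm10 and Brca2 were each lost in 10 of 12 fits that left out 1 array. The total of 6 became 3 without EB replicate 1 or CB replicate 2, 2 without EB replicate 2 or CB replicate 1, 11 without either P1 array and 1 with exon-level medians.

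Over the full culture, from ES cells to CB, 18 members fell and 0 rose, against 3.61% of all genes called lower and 6.19% called higher. The median was -0.63 beside -0.05 for all genes, 39 of 40 estimates were below 0, and 6 members fell at least 2-fold. Brca2 (10527801), which acts in DNA repair, fell farthest, from 8.66 and 8.32 in ES cells through 7.33 and 7.35 in EB to 6.32 and 6.49 in CB, by 2.09 ± 0.28 (adjusted p = 0.000378 in limma). No group overlapped its neighbour. Ccne1, Pola1, Gins1, Orc1 and Tk1 fell by 1.21 ± 0.20, 1.21 ± 0.32, 1.07 ± 0.24, 1.02 ± 0.23 and 1.01 ± 0.17. The Tk1 row not used fell less, from 7.61 and 7.75 in ES cells to 7.07 and 6.54 in CB. Mcm6 and Rrm2, the steepest in the heart, fell by 0.76 ± 0.19 and 0.91 ± 0.19. Dropping ES replicate 1 left 5 calls and dropping ES replicate 2 left 4. Dropping CB replicate 1 left 3 and dropping CB replicate 2 left 11, and exon-level medians left 7.

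The net changes of heart and culture were compared within the same fit, as the adult minus E17.5 change less the CB minus ES change. It was below 0 and called for 26 of 40 members and above 0 for 0, against 14.2% and 13% of all genes. The median was -1.07 beside 0.08 for all genes. Rrm2, Mcm6, Rrm1 and Prim1 differed most, at -3.63 ± 0.27, -3.01 ± 0.26, -2.79 ± 0.32 and -2.65 ± 0.29. All 4 nucleotide genes and 9 of 11 licensing genes fell farther in the heart. For Ccne1 the difference was -0.00 ± 0.28, and for Orc1, Gmnn, Rfc4, Prim2 and Brca2 the estimate was above 0 without passing. Orc1, Gmnn and Brca2 were the 3 members below percentile 50 of all genes at E17.5 (32.21, 45.66 and 49.3). All 3 were called lower from E17.5 to adult, and the part of low level in these estimates was not tested. Rfc4 and Prim2 stood at percentiles 89.1 and 57.69. Cell mixture, age and culture differ at once between these samples and cannot be told apart.

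**Figure D4:**
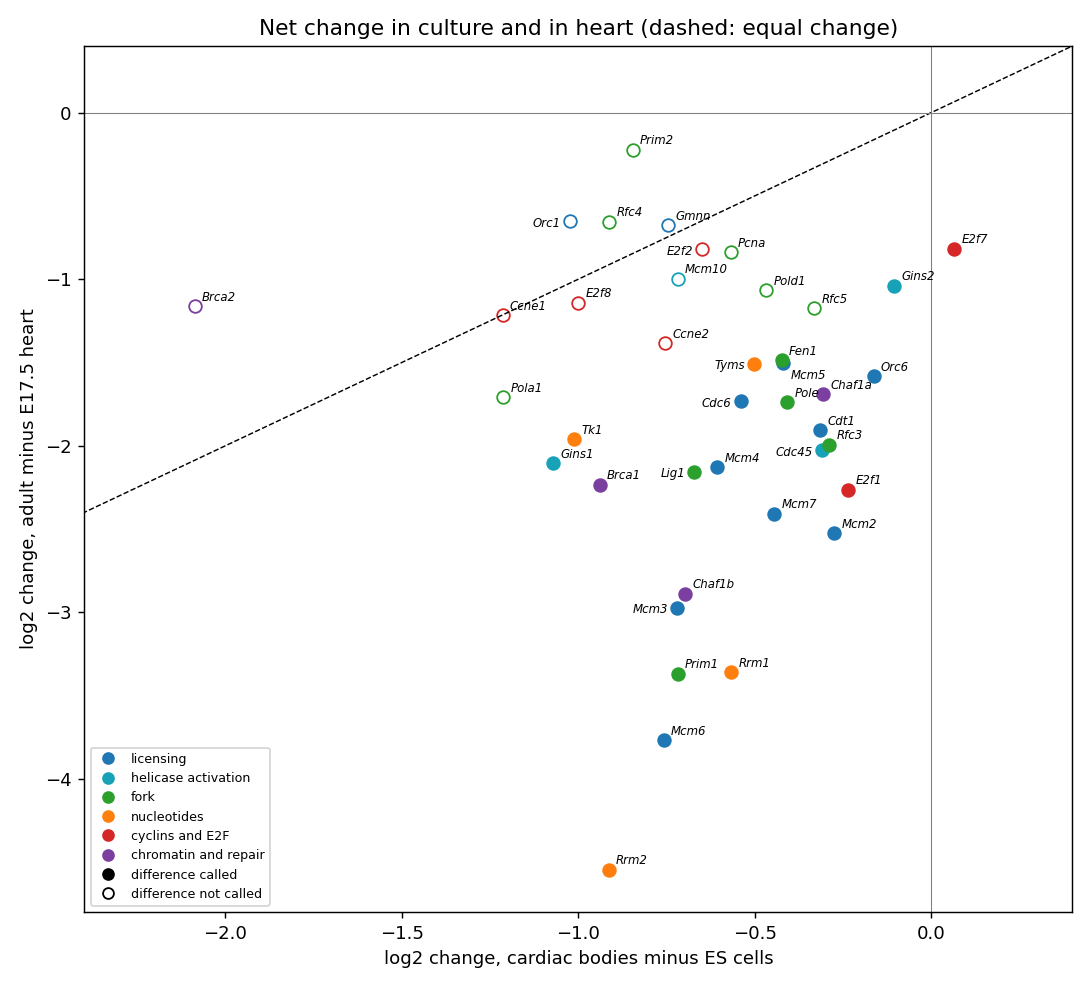
Log2 change from ES cells to cardiac bodies (horizontal) against the change from E17.5 to adult hearts (vertical) for each of the 40 members, with 2 arrays per group and the diagonal marking equal change. Rrm2, Mcm6, Rrm1 and Prim1 lie far below the diagonal, Ccne1 on it and Brca2 above it.

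Cultured cells at the cardiac stage were set beside the fetal heart, since both express cardiomyocyte genes. Of 40 members 26 were higher in CB than in E17.5 hearts and 2 lower, against 12.1% and 11.6% of all genes, with a median of 0.91 beside -0.02. The higher members included 9 of 11 licensing genes, 3 of 4 activators, 9 of 11 fork genes and 3 of 4 in chromatin and repair, but 1 of 4 nucleotide genes and 1 of 6 cyclins and E2F. Orc1, at 7.50 and 8.0 in CB and 5.24 and 4.84 at E17.5, was 2.71 ± 0.23 higher (6.56-fold, adjusted p = 5.79e-06 in limma). Mcm10 was 2.42 ± 0.16 higher, Cdt1 2.02 ± 0.22, Ccne1 1.95 ± 0.20 and Mcm5 1.85 ± 0.17.

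The 2 lower members were Ccne2, at -1.08 ± 0.19, and Tk1, at -0.62 ± 0.17. The Tk1 call was lost (adjusted p = 0.0512 in limma) when both of its rows were averaged, and the Ccne2 call with exon-level medians (-0.47, adjusted p = 0.372). Rrm1 and Rrm2 did not pass, at -0.08 ± 0.23 and -0.23 ± 0.19, nor did E2f1 at 0.00 ± 0.18. Among markers, 8 of 8 for pluripotency and 6 of 7 for epithelium and endoderm were higher in CB than at E17.5, and 1 of the latter, Sox17, was lower. Lower in CB were 7 of 7 fibroblast, 7 of 7 endothelial, 5 of 6 macrophage, 6 of 8 cardiomyocyte and 3 of 6 erythroid markers. Their part was not tested. With exon-level medians 22 members were higher and 0 lower; Prim1, Prim2, Cdc45, Pold1 and Chaf1a lost their calls and Gins1 gained one.

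Undifferentiated ES cells stood farther from the fetal heart. Of 40 members 34 were higher in ES cells and 0 lower, against 18.4% and 17.8% of all genes, 30 of them at least 2-fold, with a median of 1.54 beside 0.01. Licensing, activation, fork, and chromatin and repair genes were called in 30 of 30. Orc1 was 3.74 ± 0.23 higher (13.3-fold, adjusted p = 1.24e-07 in limma), Ccne1 3.17 ± 0.20 and Mcm10 3.14 ± 0.16. Rrm1, Tk1, Ccne2, E2f1, E2f2 and E2f7 did not pass, with estimates between -0.33 for Ccne2 and 0.55 for E2f2.

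Other genes of the pathway were read from lists that did not include the members. Of 77 other replication and S-phase genes, 35 fell and 0 rose from E17.5 to P1, 25 fell and 10 rose from P1 to adult, and 52 fell and 7 rose from E17.5 to adult. Of all genes, 3.05%, 14.7% and 18% were called lower in these comparisons and 2.08%, 15.6% and 18.1% higher. Ccna2, cyclin A2, which acts in S and G2 phase, fell by 2.92 ± 0.20 from E17.5 to P1, from 9.87 and 9.81 to 7.20 and 6.64. Dbf4, the activator of the Cdc7 kinase, fell by 2.65 ± 0.33 in that step. Between P1 and adult, the clamp loader subunit Rfc2 fell by 1.93 ± 0.17 and Cdk2, the cyclin E partner, by 1.81 ± 0.17. Rb1, the retinoblastoma protein, rose by 1.77 ± 0.33 and Orc3, an origin recognition subunit, by 1.38 ± 0.24. Orc3 measured 7.96 and 7.14 at P1 and 9.01 and 8.84 in adults.

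In culture the same 77 genes had 14 falls and 2 rises from ES cells to EB, 6 falls and 3 rises from EB to CB and 10 falls from ES cells to CB. Of all genes, 8.61%, 6.43% and 3.61% were called lower in these comparisons and 12%, 5.45% and 6.19% higher. From EB to CB the shares of the 77 genes are near those of all genes. Msh6, a mismatch repair gene, fell by 1.57 ± 0.20 into EB and rose by 1.03 ± 0.20 into CB, and Ticrr, a helicase activation factor, fell by 1.20 ± 0.26 into EB. E2f5 rose by 1.05 ± 0.18 into EB and fell by 1.47 ± 0.18 into CB. Against E17.5 hearts, 39 of 77 were higher and 2 lower in CB, with Msh6 2.65 ± 0.20 higher, and 59 were higher and 4 lower in ES cells. The shares of all genes were 12.1% higher and 11.6% lower in CB, and 18.4% and 17.8% in ES cells. In the difference between heart and culture 34 were below 0 and 6 above, against 14.2% and 13% of all genes.

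Mitosis genes, which act after replication, were given as a comparison. All 23 fell from E17.5 to P1, with a median of -2.52 beside -1.07 for the members, and all 23 fell from E17.5 to adult, with a median of -3.26 beside -1.70. Of all genes, 3.05% and 18% were called lower in these comparisons. Kif11, the spindle motor, fell by 3.90 ± 0.41 by P1, from 9.20 and 9.16 to 6.21 and 4.36, and Top2a, the topoisomerase that untangles chromosomes, by 5.0 ± 0.39 by adulthood. From P1 to adult 11 fell and 0 rose, against 14.7% of all genes called lower and 15.6% called higher. In CB against E17.5 hearts 3 mitosis genes were higher (Cdc20, Ttk and Aurka), 2 lower (Cenpf and Mki67), and the median was 0.10 beside 0.91 for the members. These shares are near those of all genes, 12.1% higher and 11.6% lower. Mki67 measured 8.17 and 7.84 in CB and 9.31 and 9.06 at E17.5. From ES cells to EB 5 of 23 fell, from EB to CB 4 and from ES cells to CB 5, with 0 rises at each. Of all genes, 8.61%, 6.43% and 3.61% were called lower in these comparisons. In ES cells against E17.5 hearts 14 were higher, and in the difference between heart and culture 21 were below 0. The matching shares of all genes were 18.4% and 14.2%. A test between the lists was not run. Of 22 mitosis promoters 13.6% held an E2F word and 81.8% held CCAAT, against 49.3% and 49.3% of 75 promoters of the other replication genes.

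**Figure D5:**
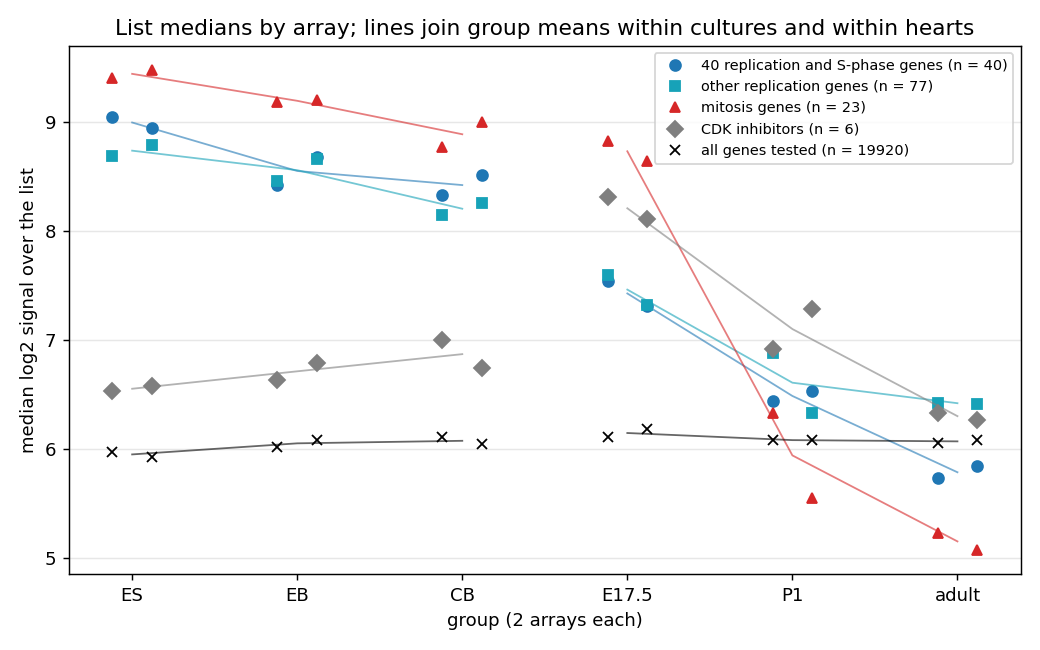
Median log2 level of the 40 members, 77 other replication genes, 23 mitosis genes, 6 CDK inhibitors and all 19920 genes on each of the 12 arrays, with lines joining group means within the cultures and within the hearts. The mitosis median drops from 8.82 and 8.64 at E17.5 to 6.33 and 5.55 at P1, and the member median from 7.54 and 7.31 to 6.44 and 6.54.

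Exon-level values were also read for direction. They come from the same RNAs as the gene-level values, so they are no independent check. The shares below were not counted over all probe sets. The 609 exon-level probe sets of the 40 members were lower in P1 than in E17.5 hearts in 90.1% of cases, lower in adult than in P1 hearts in 73.2% and lower in adult than in E17.5 hearts in 89%. They were lower in EB than in ES cells in 86.4%, in CB than in EB in 58.6% and in CB than in ES cells in 92.9%. Against E17.5 hearts, 14.4% were lower in CB and 4.8% in ES cells. Probe sets of a gene share its RNA and are not replicates. Of the 10 probe sets of Rfc4, 9 were higher in adult than in P1 hearts with a median of 1.31, and of the 16 of Prim2, 14 were.

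Single exons were compared through a splicing index, which subtracts the gene's log2 level from the probe set's within each array. A probe set was called at an adjusted p under 0.05 and an index change of at least 1. Tested probe sets belonged to genes with 4 or more of them, at or above the array median in both groups, and were themselves at or above it in 1 group or both. For the members 0 of 561 probe sets were called between ES cells and EB, 0 of 530 between EB and CB, 0 of 559 between ES cells and CB and 0 of 280 between E17.5 and P1. All genes had 0.0313%, 0.00308%, 0.109% and 0% called in these comparisons. At an unadjusted p under 0.05 in limma, with an index change of any size, the member counts were 11, 8, 12 and 33. They are out of the same 561, 530, 559 and 280. Such counts were not taken over all genes, so no share stands beside these member probe sets. The lowest p-values among them belonged to probe set 10562575 of Ccne1 from ES cells to EB (index change 1.73 ± 0.32, adjusted p = 0.18 in limma) and to probe set 10438701 of Rfc4 from E17.5 to P1 (2.63 ± 0.31, adjusted p = 0.402).

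More calls came from comparisons with adult hearts, where age and any separate run of the adult arrays cannot be told apart. Of 114 probe sets tested between P1 and adult, in 12 members, 16 were called, and of 140 tested between E17.5 and adult, in 13 members, 34 were, against 13.4% and 16.4% of all probe sets. From P1 to adult the members' share is near that of all probe sets. In the second comparison Rrm1 had 7 called, Mcm2 5, Mcm5 6 and Pold1 4, with both signs in each gene. Mcm2 probe set 10546165 went down in index by 2.90 ± 0.26 (adjusted p = 0.000811 in limma) and probe set 10546179 went up by 2.34 ± 0.31. The Mcm2 gene means were 8.75 at E17.5 and 6.23 in adults, so the index rise goes with a probe set whose own level changed little. In Rfc4, probe set 10438701 fell in index by 3.09 ± 0.31 from P1 to adult, against the rise of its gene. Over genes whose level changed by at most 1, the counts were 9 from P1 to adult and 3 from E17.5 to adult, and with no filter on level 94 and 148. The count of 16 was 6 without P1 replicate 1, and the count of 34 was 20 without E17.5 replicate 1 and 18 without E17.5 replicate 2.

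Against E17.5 hearts, 1 of 478 member probe sets was called in CB and 4 of 514 in ES cells, where 0.235% and 1.45% of all probe sets were. Probe set 10605676 of Pola1 was called in both, with a higher index by 3.47 ± 0.48 in CB (adjusted p = 0.035 in limma) and 3.0 ± 0.48 in ES cells. It measured 2.82 and 2.74 at E17.5 and 6.05 and 7.76 in CB. The others called in ES cells were probe sets of Ccne1, Mcm5 and Rfc5, lower by 2.72 ± 0.32, 2.39 ± 0.37 and 2.03 ± 0.30. These 3 stayed within a narrow range while their genes moved: the Ccne1 probe set measured 8.24 and 8.33 in ES cells and 7.74 and 7.93 at E17.5, where its gene differed by 3.17. The CB call was lost in 12 of 12 fits that left out 1 array, and of the 4 in ES cells 1 was left when ES replicate 1 was dropped and 0 when ES replicate 2 or E17.5 replicate 2 was.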

How the data were processed

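RNA was extracted with TRIzol, depleted of ribosomal RNA, amplified and hybridised to mouse gene arrays, per the labels' protocols. The deposited values are log2 levels made by the authors with RMA in Affymetrix Power Tools, per the submitters' processing notes, with versions not given in the sources used here. Each RNA has 35556 gene-level rows and 241576 exon-level rows; neither was filtered against background. RMA puts arrays on a common distribution, so a change in total RNA per cell would not show.

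Rows with 1 gene symbol in the platform annotation were used (21789; 1621 had several and 12146 none), with the highest-mean row of each gene, leaving 19920 genes. The 6 group means were estimated from 12 arrays by limma 3.58.1 under R 4.3.3 (6 residual and 6.2 prior degrees of freedom), with adjusted p-values over all genes. The splicing index was fitted likewise for genes with 4 or more probe sets. Both fits were tested on simulated data. Members and lists were chosen with earlier results of these data known, so no list count is independent evidence. Of 163 list genes 155 were measured. Any member may be named; of the other lists, up to 4 called genes with the largest changes per comparison. Alternatives changed the normalization, filter, prior, row choice, gene summary, replicate block and arrays.

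Over 15 pairs of groups the correlation of deviations between same-numbered arrays ran from -0.176 to 0.29, above 0.1 in 2.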

Additional observations from a re-analysis of the deposited data

How the results depend on the processing

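Over 18 alternatives, 6480 recomputed member changes kept their call or lack of it in 6016 cases, lost it in 348 and gained it in 60. Another 56 uncalled estimates changed sign, and 0 called changes reversed. Taking each gene as the median of its exon-level probe sets lost 56 calls, the most of any setting, and left 6 members called from ES cells to EB, 1 from EB to CB and 7 from ES cells to CB. Leaving out 1 array at a time gave 5 to 19 members called from ES cells to EB, 2 to 11 from EB to CB, 3 to 20 from ES cells to CB, 13 to 30 from E17.5 to P1, 18 to 23 from P1 to adult and 35 to 39 from E17.5 to adult; 20 to 30 differed between CB and E17.5, 32 to 35 between ES cells and E17.5, and 18 to 27 in the difference between heart and culture. The cause was not tested. With the replicate number as a block the counts were 14, 5, 17, 29, 22, 39, 27, 34 and 26 in that order, 6 calls were lost and 0 reversed; the labels do not say that a number marks a shared culture, litter or day. The 55 splicing index calls over all comparisons became 49 with that block, 258 with no filter on level and 13 over genes whose level changed by at most 1, where fewer probe sets are tested, and ran from 33 to 59 with 1 array left out. With 2 arrays per group and no background measure used, the low P1 and adult levels are the least certain. The same holds for Orc1, Gmnn and Brca2 at E17.5.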

Other observations

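Of 6 cell cycle inhibitors measured, 3 fell and 0 rose from E17.5 to adult hearts, against 18% of all genes called lower and 18.1% called higher. Cdkn1c, a Cdk inhibitor of the p57 type, measured 10.58 and 10.67 in E17.5 hearts, 9.18 and 9.41 at P1 and 7.53 and 7.50 in adults. It fell by 3.11 ± 0.18 from E17.5 to adult (8.63-fold, adjusted p = 1.71e-07 in limma), and the ages did not overlap. Cdkn2d and Cdkn2c, inhibitors of Cdk4 and Cdk6, fell by 2.71 ± 0.21 and 1.34 ± 0.18 over the same span.

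Cdkn1b, which inhibits cyclin E kinase, stood between 8.41 and 8.84 on the 6 heart arrays and was not called between heart ages. In culture it measured 7.88 and 7.55 in ES cells, 8.59 and 8.47 in EB and 7.92 and 7.79 in CB, a rise of 0.82 ± 0.18 (adjusted p = 0.00608 in limma) and then a fall of 0.68 ± 0.18 (adjusted p = 0.0278). Among the cultures both Cdkn1b and Ccne2 were highest in EB.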
